A study of Mus musculus with 12 samples.

Results

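Torin1 and rapamycin were compared directly in mouse embryonic fibroblasts (MEFs), the matrix-producing cells that grow out of dissociated embryos in culture. RNA levels were measured by sequencing after 24 h of treatment. The study holds 12 libraries, of which the 3 with Torin1 at 250 nM and the 3 with rapamycin at 20 ng/ml form the comparison, chosen by their titles. The 3 libraries with DMSO alone serve as a reference level, and 3 libraries with RapaLink-1 at 10 nM entered the gene filter, the scaling and the estimate of the spread and are not compared here. All cells were grown in DMEM with 10% serum, and the labels name neither a genotype, a strain nor a passage. The doses of the compounds are given in different units, so the comparison is one between these doses. Nothing in the labels says whether the 3 libraries of a treatment were separate cultures, so the p-values reflect only how these libraries vary, and that variation may be technical.

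mTOR is a protein kinase that works in a pair of complexes. mTOR complex 1 (mTORC1) drives protein, lipid and nucleotide synthesis and restrains autophagy when amino acids and growth factors are present, and mTOR complex 2 (mTORC2) phosphorylates Akt and related kinases. Rapamycin, a macrolide, binds the small protein FKBP12, and the pair docks beside the kinase site of mTORC1, which blocks some of its substrates more than others; mTORC2 is affected mainly after long exposure. Torin1 occupies the ATP site of the kinase and so acts on both complexes. A comparison of one with the other asks which messages differ between a block at the ATP site and the block that rapamycin gives.

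Total counts were 31328365 to 37762480 in the Torin1 libraries and 30495065 to 38809352 in the rapamycin libraries. Values are CPM, read counts scaled to a common library size, and differences are log2 values, Torin1 minus rapamycin, from 3 libraries against 3. The ± value is a standard error derived from the test statistic of the fit. The spread behind it was estimated over all 12 libraries and shared in large part across genes, so it is not a gene's own replicate spread. A gene is called higher or lower (with Torin1 than with rapamycin, here and below) at an adjusted p under 0.05 in edgeR's quasi-likelihood test. Of 15917 genes that passed the filter on low counts, 10739 (67.5%) were called, 5451 higher (34.2%) and 5288 lower (33.2%). The differences were mostly small, with a median of 0.02 and quartiles of -0.27 and 0.34, and 772 genes (4.85%) were higher and 523 (3.29%) lower by at least 2-fold. In 11010 genes (69.2%) the 3 Torin1 libraries did not overlap the 3 rapamycin libraries. So many calls rest on a small spread between libraries, a biological coefficient of variation of 1.48%, and a call by itself sets no gene apart from the majority. The shares called higher and lower over all genes are the background for the counts of gene lists below. A list split near evenly resembles the genes as a whole. For 2686 genes (16.9%) the 95% interval of the difference lay within 0.2 of 0 on either side. Levels are relative, so the direction of small differences depends on the scaling. With upper-quartile scaling 6359 genes were called higher and 4489 lower, with a median of 0.08. In bulk RNA, a change in the number of cells in some state and a change in RNA per cell cannot be told apart.

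The largest rises were taken among called genes that averaged at least 10 CPM and had no overlap. Plin4, which encodes a perilipin of the lipid droplet surface, stood at 20.9, 21.2 and 22.7 CPM with Torin1 and 3.35, 2.56 and 3.12 CPM with rapamycin. Its gene, ENSMUSG00000002831, lies at chr17:56100591-56109803 (GRCm38, minus strand). The noncoding RNA Zfas1 (ENSMUSG00000074578, chr2:167062934-167065862, plus strand), the host of small nucleolar RNAs, stood at 273, 261 and 261 CPM with Torin1 and 48.5, 49.4 and 47.3 CPM with rapamycin. In both genes every Torin1 library lay several-fold above every rapamycin library, and the differences were 2.83 ± 0.08 and 2.45 ± 0.03. Ccl5, a chemokine that attracts T cells and monocytes, measured 48.2, 46.8 and 45.3 CPM with Torin1 and 10.2, 11.2 and 11.2 CPM with rapamycin, a difference of 2.10 ± 0.05. Secreted and matrix proteins followed, with the insulin-like growth factor binding protein Igfbp2 at 2.09 ± 0.06, the fibrillar collagen Col27a1 at 2.09 ± 0.04, the matricellular protein Smoc2 at 2.06 ± 0.08 and the IGF binding protein protease Pappa at 1.97 ± 0.03. Others were the serotonin receptor Htr1b (2.40 ± 0.08), the integrin subunit Itga8 (2.05 ± 0.05), the actin nucleator Lmod1 (2.03 ± 0.06), the phosphodiesterase Gdpd2 (2.01 ± 0.08) and the tetraspanin Tspan7 (1.97 ± 0.05). Tissue factor, F3, the cell-surface starter of blood clotting, rose by 1.92 ± 0.02, and the LIM protein Fhl1 (1.85 ± 0.02) and the glycogen-binding protein Stbd1 (1.78 ± 0.07) completed the 15 largest.

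The largest fall by the same rule was in Mthfd2, a mitochondrial folate enzyme, which stood at 14.5, 13.6 and 13.4 CPM with Torin1 and 70.8, 67.9 and 70.9 CPM with rapamycin, with 128, 128 and 131 CPM in the DMSO libraries. The 3 groups did not overlap, and Torin1 lay furthest from DMSO. Cyclin E1, Ccne1, which activates its kinase at the start of S phase, measured 8.76, 7.17 and 7.31 CPM with Torin1 and 32.9, 31.6 and 32.2 CPM with rapamycin. Thymidine kinase Tk1 measured 31.4, 29.9 and 29.5 CPM with Torin1 and 123, 119 and 115 CPM with rapamycin, the lack of overlap being part of the rule. The differences were -2.34 ± 0.04, -2.06 ± 0.06 and -1.98 ± 0.03. Among the other large falls were the ER protein Sdf2l1 (-1.90 ± 0.07), the protease-activated receptor F2rl1 (-1.86 ± 0.07), the growth factor pleiotrophin, Ptn (-1.81 ± 0.03), the MAX partner Mxd3 (-1.80 ± 0.06) and the serine synthesis enzyme Psat1 (-1.71 ± 0.02). Genes of DNA repair and chromosome duplication also stood there, with the Fanconi anaemia protein Fanca at -1.74 ± 0.04, the centromere protein Cenpm at -1.70 ± 0.06, the ribonucleotide reductase subunit Rrm2 at -1.68 ± 0.02, the histone chaperone Asf1b at -1.66 ± 0.04 and the histone kinase Haspin at -1.63 ± 0.06. Castor2, a relative of the arginine sensor Castor1, stood at -1.85 ± 0.06.

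**Figure D1:**
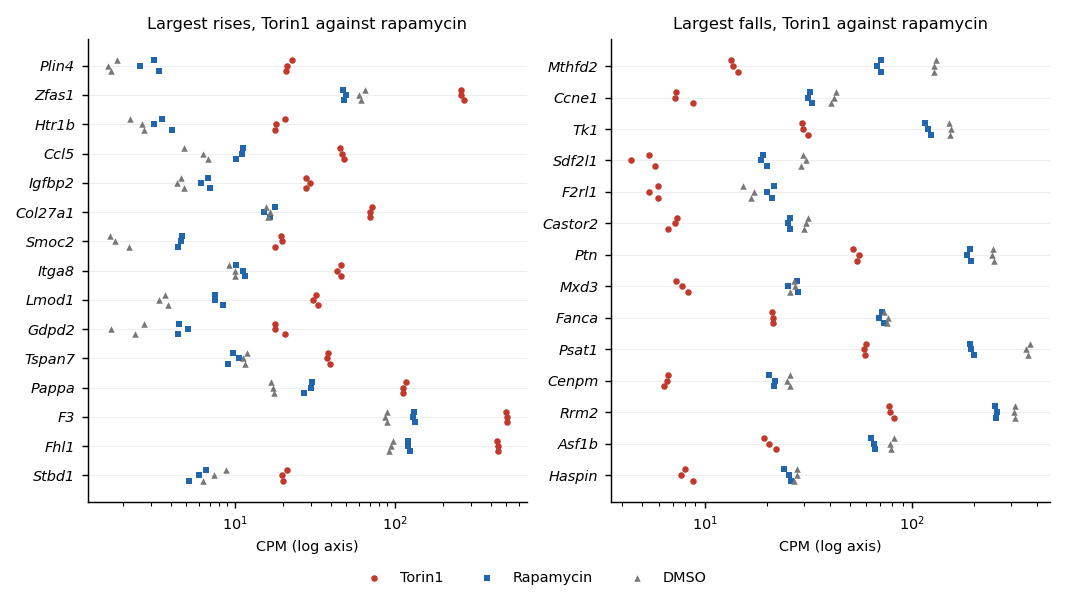
CPM on a log axis in each of the 3 Torin1, 3 rapamycin and 3 DMSO libraries for the genes named above with the largest rises (left) and falls (right) between rapamycin and Torin1, among called genes that averaged at least 10 CPM and had no overlap. Each point is a library; for Mthfd2 the rapamycin libraries lie between the Torin1 and DMSO libraries, while for F2rl1 the DMSO libraries lie between the 2 compounds.

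Among the subunits of the mTOR complexes, Rictor and Prr5l were higher and Mlst8, Mapkap1 and Rptor lower, while the kinase itself was nearly level. Mtor measured 82.7, 85.3 and 89.4 CPM with Torin1 and 80.2, 83.5 and 80.5 CPM with rapamycin. Its libraries overlapped and the difference was 0.08 ± 0.03. The Mtor call was lost with DESeq2 (0.07), with the gene length trend removed (0.03), without Torin1 replicate 2 (0.06) and without Torin1 replicate 3 (0.03). Rictor, the scaffold of mTORC2, measured 140.0, 136 and 140.0 CPM with Torin1 and 96.8, 104 and 98.5 CPM with rapamycin and was higher by 0.48 ± 0.02, and Prr5l, an mTORC2-binding protein, by 0.70 ± 0.05. Mapkap1 (SIN1), another mTORC2 subunit, was lower, at -0.44 ± 0.03. The shared subunit Mlst8 measured 21.2, 21.8 and 22.3 CPM with Torin1 and 36.0, 33.4 and 35.1 CPM with rapamycin, a difference of -0.68 ± 0.04 without overlap, and Rptor, the scaffold of mTORC1, was lower, at -0.31 ± 0.03. The assembly factors Telo2 and Tti1 went opposite ways, at 0.22 ± 0.04 and -0.30 ± 0.04. The mTORC1 inhibitor Akt1s1 (PRAS40) stood at 0.07 ± 0.03, and Deptor at 0.04 (95% interval -0.07 to 0.16) and Prr5 at 0.05 (95% interval -0.09 to 0.18) were not called. The Akt1s1 call was lost without any 1 of the Torin1 libraries (0.04 to 0.05) and without rapamycin replicate 2 (0.06) or 3 (0.07). It was also lost with DESeq2, without the filter on low counts and with the 6 libraries alone (0.06 in each). In all, of 11 subunits and partners 5 were higher and 4 lower, and 3 were higher with DESeq2, without Torin1 replicate 2 or without Torin1 replicate 3.

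The brakes on mTORC1 that respond to stress were lower with Torin1, while the folliculin complex and most of the Rag GTPases, which bring mTORC1 to the lysosome, were higher. Ddit4 (REDD1), an inhibitor induced by stress, measured 4.83, 4.37 and 4.54 CPM with Torin1 and 14.3, 14.0 and 14.5 CPM with rapamycin, with 40.0, 41.7 and 41.3 CPM in DMSO, a difference of -1.65 ± 0.08. The leucine sensor Sesn2 was lower, at -1.54 ± 0.09, its relatives Sesn1 and Sesn3 at -0.68 ± 0.05 and -0.68 ± 0.03, and Ddit4l, a REDD1 relative at low counts, at -1.75 ± 0.46. The GTPases Rragb (0.98 ± 0.07), Rragc (0.28 ± 0.02) and Rragd (0.94 ± 0.27) were higher, against -0.54 ± 0.03 for Rraga. Folliculin, Flcn, and its partners Fnip1 and Fnip2, which act on RagC and RagD, were higher by 0.52 ± 0.03, 0.54 ± 0.03 and 0.62 ± 0.04. The tuberous sclerosis genes Tsc1 (0.23 ± 0.03) and Tsc2 (0.39 ± 0.02) were higher and their partner Tbc1d7 lower (-0.42 ± 0.07), and Castor1 was higher (0.33 ± 0.06). Rheb, the GTPase that switches mTORC1 on, stood at -0.04 (95% interval -0.08 to 0.01) and was not called, except as lower without Torin1 replicate 2 (-0.06). Of 27 tested, 11 were higher with Torin1 and 12 lower, with a median of 0.00 whose sign depended on the setting.

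The genes through which mTORC1 controls translation were split. Eif4b, a helper of the helicase eIF4A and a substrate of S6 kinase, measured 1323, 1326 and 1325 CPM with Torin1 and 624, 615 and 619.7 CPM with rapamycin, a difference of 1.10 ± 0.01. The cap-binding protein Eif4e was lower, at 94.4, 92.4 and 92.4 CPM with Torin1 and 137, 132 and 133 CPM with rapamycin (-0.52 ± 0.02). Neither gene's libraries overlapped, and the genes stood on opposite sides of 0. The eIF4E inhibitors Eif4ebp1 (-0.22 ± 0.03) and Eif4ebp2 (-0.50 ± 0.03) were lower, and the kinase of elongation factor 2, Eef2k, was higher (0.73 ± 0.04). S6 kinase 1, Rps6kb1, was higher by 0.12 ± 0.02 and S6 kinase 2, Rps6kb2, lower, at -0.27 ± 0.04. Larp1, which binds the messages of ribosomal proteins, stood at 0.03 (95% interval 0.00 to 0.07), and Grb10, an adaptor stabilised by mTORC1, at -0.03 (95% interval -0.06 to 0.00). Neither was called, but Larp1 was called higher with upper-quartile scaling (0.10) and with a required mean of 5 CPM (0.07). Grb10 was called lower with DESeq2 (-0.04) and without any 1 of the Torin1 libraries (-0.06 to -0.04) or rapamycin replicate 1 (-0.04). Of 13 such genes 4 were higher and 5 lower, near the shares over all genes tested (34.2% higher and 33.2% lower). Fkbp1a, which encodes FKBP12, the protein that rapamycin binds, was lower, at -0.29 ± 0.02, and Fkbp5, a co-chaperone of steroid receptors and a glucocorticoid target, at -1.17 ± 0.03. Of 13 FK506-binding proteins tested, 10 were lower and only Fkbp15 (0.10 ± 0.04) was called higher. Its libraries overlapped and the call was lost with DESeq2 (0.09), without Torin1 replicate 1 (0.07), without Torin1 replicate 3 (0.05) and without rapamycin replicate 3 (0.07).

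Messages for growth factor receptors and insulin receptor substrates were mostly higher with Torin1. Egfr, the epidermal growth factor receptor, measured 60.3, 58.7 and 61.8 CPM with Torin1 and 22.2, 23.1 and 23.5 CPM with rapamycin, a difference of 1.39 ± 0.04. Irs2, which couples the insulin receptor to PI3-kinase, measured 202, 204 and 211 CPM with Torin1 and 107, 105 and 109.8 CPM with rapamycin (0.93 ± 0.02). In both, every Torin1 library exceeded every rapamycin library. The IGF-1 receptor Igf1r (0.58 ± 0.03), Irs1 (0.60 ± 0.03), the FGF receptor Fgfr1 (0.71 ± 0.02) and the growth hormone receptor Ghr (0.72 ± 0.02) followed, and Pdgfrb was nearly level at 0.10 ± 0.02. Of 17 tested, 14 were higher with Torin1 and 1 lower, the latter being the collagen receptor Ddr2 (-0.29 ± 0.02); the median was 0.36. Genes of the FoxO factors, which leave the nucleus when Akt phosphorylates them, included higher Foxo1 (0.67 ± 0.05), Foxo3 (0.51 ± 0.02), the ubiquitin ligase Fbxo32 (1.40 ± 0.04), the thioredoxin inhibitor Txnip (0.88 ± 0.03) and the pseudokinase Trib1 (0.71 ± 0.03). Other FoxO targets did not share that direction, with the pyruvate dehydrogenase kinase Pdk4 at -0.92 ± 0.08 and the arrestin-like Arrdc3 at -0.75 ± 0.05, and 11 of 21 were higher and 6 lower. The FoxO site TGTTTAC was found, on either strand, in 3 of 18 (16.7%) of the windows of this list, from 250 bases before to 50 bases after the RefSeq start, against 3.09% of all genes tested with one.

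**Figure D2:**
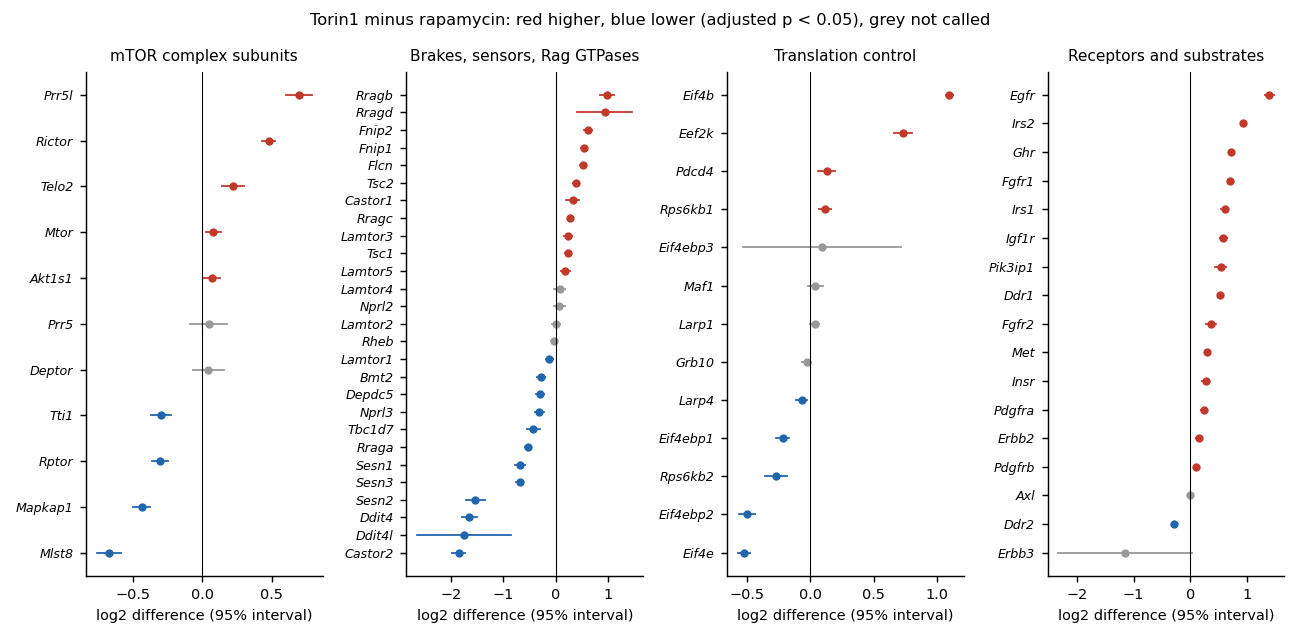
Log2 difference, Torin1 minus rapamycin, with its 95% interval for every tested member of 4 lists: mTOR complex subunits, brakes and sensors with Rag GTPases, translation control, and growth factor receptors with their substrates. Points are estimates from 3 against 3 libraries; receptors lie mostly right of 0, and Castor2, Ddit4l, Ddit4 and Sesn2 lie furthest left among the brakes.

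Of 79 cytosolic ribosomal protein messages tested, 78 were higher with Torin1, and the median was 0.48, against 0.02 over all genes. These messages begin with a run of pyrimidines (the TOP motif) through which mTORC1 controls their translation. They took 6.77% to 6.91% of the counts in the Torin1 libraries, 4.99% to 5.16% in the rapamycin libraries and 4.76% to 4.82% in the DMSO libraries. Rpl3, a protein of the large subunit near the peptidyl transferase centre, measured 1477, 1479.6 and 1451 CPM with Torin1 and 859, 810.1 and 821 CPM with rapamycin, and Rpl10a measured 1311, 1301 and 1271 CPM with Torin1 and 672, 655 and 646 CPM with rapamycin. Both sets of libraries lay apart, at 0.82 ± 0.01 and 0.98 ± 0.02. The medians of the subunits were nearly the same, with 0.48 over 46 large subunit and 0.48 over 31 small subunit genes. A C followed by at least 5 pyrimidines, within 5 bases of the RefSeq start, was found in 26 of 58 (44.8%) of their windows against 12.8% of all. The median was 0.48 both with and without it. The annotated start may miss the run in the remaining genes, so both sets may hold TOP messages. The part of the motif in the differences was not tested. Rps2 lay well below that median, at 0.09 ± 0.02. Ribosomal proteins have many processed pseudogenes with nearly the same sequence, so the level of a single gene is uncertain where reads matched several places.

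Translation factors were divided, the elongation factors and eIF3 subunits being mostly higher and the eIF4 factors going both ways. All 5 subunits of the core elongation factors were higher. The other gene listed with them, Eef1e1, stood at 0.07 (95% interval -0.01 to 0.15) and was not called. It was called higher with upper-quartile scaling (0.13) and with a required mean of 5 CPM (0.10). Eef2, which moves the ribosome along the message, measured 7958, 7806 and 7946 CPM with Torin1 and 4413, 4326 and 4391 CPM with rapamycin (0.85 ± 0.01), and Eef1a1, which brings in aminoacyl-tRNA, stood at 0.62 ± 0.01. Of 13 subunits of the initiation factor eIF3, 12 were higher, led by Eif3e (0.57 ± 0.02), the exception being Eif3b (-0.43 ± 0.02). Of 8 eIF4 factors, counting Eif4b from the translation control genes, 5 were lower, among them the scaffold Eif4g1 (-0.51 ± 0.01), and 3 higher. The higher ones were Eif4b, which had the largest difference of them, the helicase paralogue Eif4a2 (0.55 ± 0.02) and Eif4g3 (0.65 ± 0.03). The poly(A)-binding protein Pabpc1 was higher by 0.50 ± 0.01. Eif5a, the hypusine-bearing factor, was the lowest, at 594, 577 and 579 CPM with Torin1 and 1047, 1003 and 1015 CPM with rapamycin (-0.81 ± 0.02), and the release factor Gspt1 was lower, at -0.61 ± 0.02. Over the list, 24 were higher and 17 lower.

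Ribosome assembly did not follow the ribosomal proteins. Npm1, a nucleolar chaperone, measured 2619, 2652 and 2561 CPM with Torin1 and 1249.8, 1245 and 1233 CPM with rapamycin, with 1904, 1892 and 1856 CPM in DMSO, so that DMSO lay between the compounds and Torin1 highest (1.07 ± 0.01). Npm1, Eef1a1 and Eif5a have processed copies and are uncertain in the same way as the ribosomal proteins. The small subunit assembly factor Bysl (-0.75 ± 0.04), the nucleolar phosphoprotein Nolc1 (-0.57 ± 0.02) and the box C/D protein Nop56 (-0.42 ± 0.02) were lower, and the polymerase I subunits Polr1a and Polr1b were higher by 0.12 ± 0.02 and 0.25 ± 0.03. Of 50 assembly genes, 18 were higher, 22 lower and 10 not called, with a median of 0.01 whose sign depended on the setting. Mitochondrial ribosomal proteins leaned the other way from the cytosolic ones, with 45 of 78 lower, 17 higher and a median of -0.18; Mrps6 was lowest at -1.12 ± 0.03, and Mrpl20 stood at -0.75 ± 0.04.

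**Figure D3:**
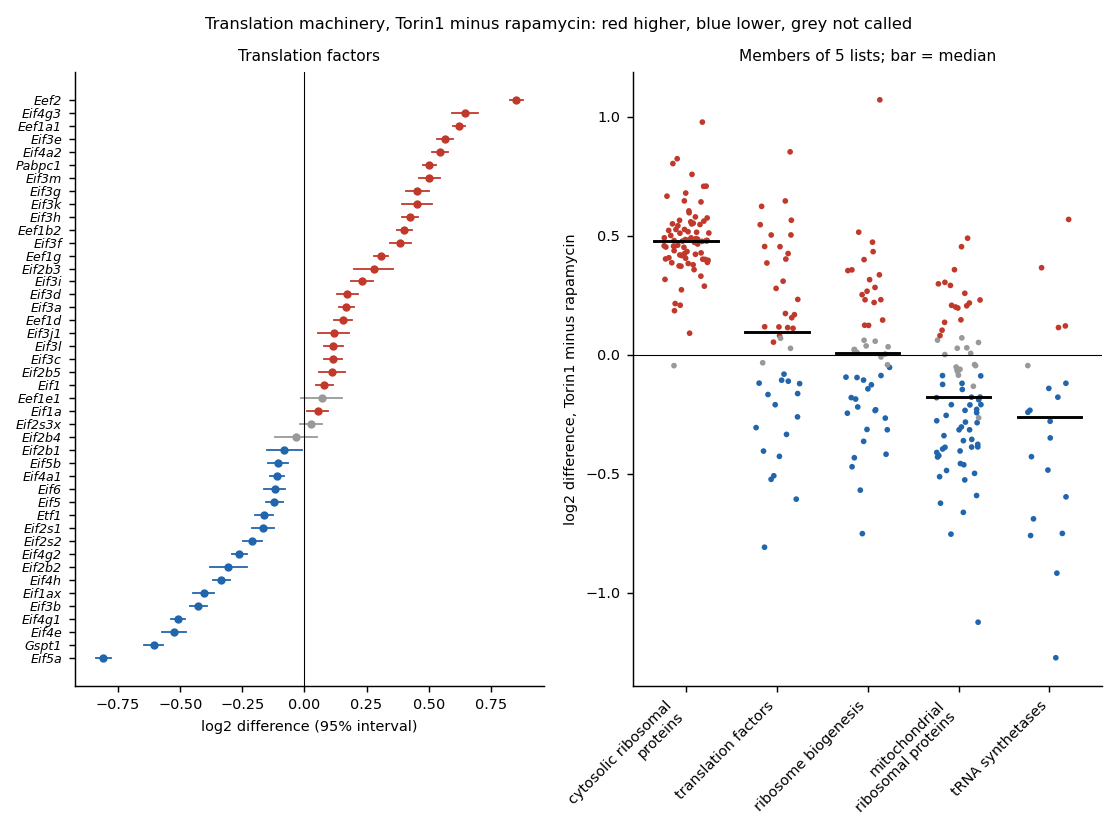
Left, log2 difference, Torin1 minus rapamycin, with its 95% interval for the 44 translation factors tested, from Eef2 at the top to Eif5a at the bottom. Right, the same difference for each member of 5 lists, with the median as a bar; the cytosolic ribosomal proteins lie almost all above 0 around 0.48, and the mitochondrial ones spread on both sides of 0.

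Targets of ATF4, the transcription factor that supplies cells with amino acids and is translated more when mTORC1 is active, were lower. Of 30 tested, 2 were higher with Torin1 and 26 lower, with a median of -0.69. Atf4 itself measured 133, 129 and 124 CPM with Torin1 and 229, 226 and 226 CPM with rapamycin, with 297, 304 and 299 CPM in DMSO, a difference of -0.82 ± 0.02. Psat1 of serine synthesis measured 59.6, 58.4 and 60.2 CPM with Torin1 and 198, 193 and 190.4 CPM with rapamycin and 364, 354 and 372 CPM in DMSO. In both genes the 3 groups stood in the order DMSO, rapamycin, Torin1 without overlap. The mitochondrial folate enzyme Aldh1l2, a low-count gene, was lower, at -2.83 ± 0.09, the leucine transporter Slc7a5 at -1.12 ± 0.03, the cystine transporter Slc7a11 at -0.93 ± 0.06 and asparagine synthetase, Asns, at -0.59 ± 0.03. Stc2 (0.37 ± 0.08) and Vldlr (0.45 ± 0.13) were the exceptions that were higher, and Nupr1 (-0.08, 95% interval -0.25 to 0.08) and Cebpb (0.00, 95% interval -0.20 to 0.21) were not called; 20.7% of the exonic bases of Cebpb overlap an antisense gene.

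The C/EBP-ATF response element, to which ATF4 binds with a C/EBP partner, was searched as TGATGNAA on both strands of the same RefSeq windows (GRCm38.p6). It was found in 9 of 25 (36.0%) of the ATF4 targets with a window and in 2.73% of all genes tested with one. The match in 4 targets is shown with flanking bases, 5′ to 3′ on the gene's strand, the match in capitals (in Slc7a11 and Pck2 it lies on the other strand): Asns at chr6:7693210-7693248 on the minus strand, Slc7a11 at chr3:50443637-50443676 on the minus strand, Pck2 at chr14:55540147-55540186 on the plus strand and Pycr1 at chr11:120643828-120643867 on the minus strand. The mitochondrial PEP carboxykinase Pck2 was lower, at -0.91 ± 0.03 and the proline enzyme Pycr1 at -0.50 ± 0.06. Here and for the other motifs reported, a match describes the letters only and is no evidence of binding in these cells. The shares do not use the differences between the compounds. Where a list holds known targets of a factor, its motif may be common whatever the treatment.
Asns: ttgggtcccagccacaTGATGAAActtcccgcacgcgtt
Slc7a11: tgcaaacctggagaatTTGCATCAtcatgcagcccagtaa
Pck2: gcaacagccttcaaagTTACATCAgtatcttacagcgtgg
Pycr1: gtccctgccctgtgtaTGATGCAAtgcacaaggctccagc

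Enzymes that make serine, glycine and folate one-carbon units, several of them ATF4 targets as well, were mostly lower (15 of 21, 3 higher). Shmt2 (-0.79 ± 0.02) and Phgdh (-0.66 ± 0.02) were among the lower ones. Of 23 amino acid transporters, 15 were lower, but the cationic transporter Slc7a2 (1.33 ± 0.02) and the lysosomal transporter Slc38a7 (0.84 ± 0.03) were higher. Of 20 cytosolic aminoacyl-tRNA synthetases, 15 were lower, with alanyl-tRNA synthetase, Aars, at -1.27 ± 0.02 and glycyl-tRNA synthetase, Gars, at -0.69 ± 0.02. The 4 that were higher charge glutamine (Qars, 0.57 ± 0.02), lysine (Kars, 0.37 ± 0.02), aspartate (Dars, 0.12 ± 0.03) and serine (Sars, 0.11 ± 0.02).

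Most genes of nucleotide synthesis were lower. The ribonucleotide reductase subunits Rrm2, at 81.8, 78.4 and 77.8 CPM with Torin1 and 253, 256 and 251 CPM with rapamycin, and Rrm1 (-0.93 ± 0.02), with the dUTPase Dut (-1.08 ± 0.03) and Tk1 above, were the genes with the smallest p. The rate-setting pyrimidine enzyme Cad was lower, at -0.39 ± 0.02, whereas CTP synthase, Ctps (0.56 ± 0.02), and the guanine nucleotide enzyme Impdh2 (0.36 ± 0.02) were higher, as was the purine enzyme Paics (0.26 ± 0.02). The amidotransferase Ppat, which commits to purine synthesis, was lower (-0.56 ± 0.03). Of 25 tested, 5 were higher with Torin1 and 17 lower. Of 10 polyamine genes, 7 were lower, among them ornithine decarboxylase, Odc1 (-0.23 ± 0.02), and AdoMet decarboxylase, Amd1 (-0.67 ± 0.03). The other 3, higher with Torin1, were the catabolic enzymes Sat1 (0.21 ± 0.03), Smox (0.34 ± 0.08) and Paox (0.63 ± 0.08).

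Genes of cholesterol synthesis and uptake, which the SREBP factors switch on, were lower almost throughout: of 27 tested, 0 were higher with Torin1 and 26 lower, with a median of -0.83. Farnesyl diphosphate synthase, Fdps, measured 62.2, 58.4 and 59.9 CPM with Torin1 and 137, 135 and 134 CPM with rapamycin, a difference of -1.17 ± 0.03. The factor Srebf2, which encodes SREBP2, measured 372, 362 and 362 CPM with Torin1 and 451, 456 and 456 CPM with rapamycin (-0.31 ± 0.02). The Torin1 libraries were the lower ones in both, without overlap. Scap, the escort of the SREBPs, stood at 0.01 (95% interval -0.04 to 0.06) and was not called, except as higher with upper-quartile scaling (0.07). The sterol regulatory element TCACNCCAC was found, on either strand, in 1 of 19 (5.26%) of their windows against 1.48% of all. Fatty acid synthesis was lower in 14 of 15 genes, with the desaturase Scd2 at -1.50 ± 0.02, the elongase Elovl6 at -1.47 ± 0.03 and fatty acid synthase, Fasn, at -0.78 ± 0.02; acetyl-CoA carboxylase 2, Acacb, whose product restrains fatty acid entry into mitochondria, was higher (1.23 ± 0.07).

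Lipid storage and burning differed in the other direction for several genes. Besides Plin4, the droplet protein Plin2 was higher, at 93.0, 91.8 and 95.9 CPM with Torin1 and 56.9, 55.6 and 57.8 CPM with rapamycin (0.72 ± 0.03), as were Plin3 (0.42 ± 0.03) and lipoprotein lipase, Lpl (0.78 ± 0.07). The phosphatidate phosphatase Lpin1 was lower (-0.76 ± 0.05). Of 16 lipid droplet proteins and lipases 7 were higher and 3 lower. Of 23 genes of fatty acid oxidation, 13 were higher and 5 lower, with the isomerase Eci1 at 0.43 ± 0.04 and the carnitine transferase Cpt1a at 0.28 ± 0.03. The sterol exporter Abca1, an LXR target, was higher by 0.81 ± 0.04, in a list where 5 of 10 genes were higher and 2 lower. The 8 adipocyte markers summed to 17.6 to 19.1 CPM with Torin1 and 15.7 to 16.6 CPM with rapamycin, mostly Fabp4 and Pparg, with Cidec at 0 in all 6 libraries; their part in these differences was not tested.

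Glycolysis showed no common direction. Lactate dehydrogenase, Ldha, measured 228, 225 and 225 CPM with Torin1 and 348, 333 and 340.5 CPM with rapamycin (-0.59 ± 0.02), and Pgam1 (-0.76 ± 0.02) and pyruvate kinase, Pkm (-0.46 ± 0.01), were lower. Hexokinase 2, Hk2 (0.54 ± 0.03), and glucose-6-phosphate isomerase, Gpi1 (0.51 ± 0.02), at the top of the pathway, were higher. Of 23 tested, 9 were higher with Torin1 and 11 lower. In the pentose phosphate pathway 6 of 7 genes were lower, with Pgd at -0.80 ± 0.02 and Taldo1 at -0.92 ± 0.04; Pgls was called higher at 0.10 ± 0.03, but not without Torin1 replicate 1 (0.06), and 20.6% of its exonic bases overlap another gene. Of 75 nuclear-encoded respiratory chain genes, 52 were lower and 13 higher (20 with upper-quartile scaling), a median of -0.21. Cytochrome c, Cycs, was lowest (-1.05 ± 0.03; its processed copies make it uncertain), and the complex I subunit Ndufa6 was among the higher ones (0.65 ± 0.03).

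Genes of cell division had the lowest median of the 53 gene lists examined. All 56 mitosis genes tested were lower, between -1.62 and -0.38, with a median of -1.11. The proliferation marker Mki67 measured 141, 132 and 143 CPM with Torin1 and 329, 341 and 339 CPM with rapamycin, with 397, 395 and 393 CPM in DMSO. Cyclin A2, Ccna2, measured 111, 110.5 and 109.7 CPM with Torin1 and 262, 261 and 268 CPM with rapamycin, with 326, 334 and 331 CPM in DMSO. The Torin1 libraries stood lowest in both, below rapamycin and DMSO. The differences were -1.28 ± 0.02 and -1.26 ± 0.02. Also lower were topoisomerase Top2a (-0.97 ± 0.02), the chromosomal passenger subunits Incenp (-1.32 ± 0.02) and Aurkb (-1.62 ± 0.03), the mitotic kinase Cdk1 (-1.14 ± 0.02), its partner Ccnb1 (-1.13 ± 0.02) and the factor Foxm1 (-1.30 ± 0.02). Over the list the median was -0.20 for rapamycin minus DMSO and -1.28 for Torin1 minus DMSO; the same DMSO libraries enter both.

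Promoters of mitosis genes often pair a CHR element (TTTGAA), read by the DREAM and B-MYB complexes, with CCAAT boxes (CCAAT) bound by NF-Y. In the same RefSeq windows, on both strands, TTTGAA was found in 32 of 47 (68.1%) of the mitosis genes against 14.2% of all genes tested, and CCAAT in 34 of 47 (72.3%) against 42.6%. Stretches that hold both motifs are shown for 5 of them, 5′ to 3′ on the gene's strand with the motifs in capitals (ATTGG is CCAAT on the other strand): Cdc20 at chr4:118437344-118437367 on the minus strand, Prc1 at chr7:80294408-80294457 on the plus strand, Espl1 at chr15:102296243-102296277 on the plus strand, Cdk1 at chr10:69352916-69352966 on the minus strand and Ncapd2 at chr6:125191624-125191715 on the minus strand. The anaphase activator Cdc20 was lower, at -1.29 ± 0.03, the spindle midzone protein Prc1 at -1.24 ± 0.03, the protease separase, Espl1, at -1.07 ± 0.02 and the condensin subunit Ncapd2 at -0.98 ± 0.02.
Cdc20: ttgggtTTTGAAggagCCAATgaa
Prc1: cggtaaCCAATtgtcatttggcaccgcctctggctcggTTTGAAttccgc
Espl1: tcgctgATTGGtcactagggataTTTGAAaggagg
Cdk1: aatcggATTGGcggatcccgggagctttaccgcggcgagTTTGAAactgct
Ncapd2: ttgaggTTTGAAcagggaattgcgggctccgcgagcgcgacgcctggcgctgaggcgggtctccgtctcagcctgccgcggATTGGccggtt

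DNA replication was lower in 53 of 55 genes, with a median of -0.78. The helicase subunit Mcm5 measured 104, 101 and 101 CPM with Torin1 and 234, 222 and 228 CPM with rapamycin (-1.16 ± 0.02), the maintenance methyltransferase Dnmt1 stood at -0.92 ± 0.02, its partner Uhrf1 at -1.42 ± 0.02, the sliding clamp Pcna at -1.02 ± 0.02 and the licensing factor Cdc6 at -1.61 ± 0.05. The origin subunits Orc3 (0.06, 95% interval 0.00 to 0.12) and Orc5 (-0.07, 95% interval -0.17 to 0.02) were not called, though Orc5 was called lower without Torin1 replicate 2 (-0.12) or rapamycin replicate 2 (-0.11), and Orc3 higher with upper-quartile scaling (0.13). The E2F site GGCGGGAA was found, on either strand, in 10 of 46 (21.7%) of these genes' windows against 4.66% of all. All 7 E2F factor genes were lower, from -2.09 to -0.16, E2f7 at -1.12 ± 0.03 among them. Cyclin D1, Ccnd1, the growth-factor-dependent cyclin, measured 153, 150.4 and 151 CPM with Torin1 and 285, 283 and 285 CPM with rapamycin (-0.91 ± 0.02); 23.4% of its exonic bases overlap another gene. The inhibitor Cdkn1a (p21), a p53 target that holds back cyclin-dependent kinases, was lower as well, at low levels of 0.258, 0.539 and 0.347 CPM with Torin1 and 2.57, 1.95 and 1.79 CPM with rapamycin, with 4.41, 4.11 and 4.49 CPM in DMSO (-2.43 ± 0.23). In contrast the inhibitors Cdkn2a (0.37 ± 0.02) and Cdkn2b (0.30 ± 0.03) were higher. In the list of G1 cyclins and CDK inhibitors, which also holds the E2F genes, 4 of 26 were higher with Torin1 and 20 lower.

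Protein quality control was mostly lower. Of 38 proteasome genes, 34 were lower and 3 higher (Psma6, 0.07 ± 0.02, a call lost without Torin1 replicate 1 or 2, and the assembly chaperones Psmg1, 0.19 ± 0.04, and Psmg4, 0.33 ± 0.07), with a median of -0.45; the regulatory subunit Psmd1 measured 149, 159 and 152 CPM with Torin1 and 284, 282 and 288 CPM with rapamycin (-0.89 ± 0.02). Of 25 ER chaperones and unfolded protein response genes, 21 were lower. The ER chaperone Hspa5 (BiP) measured 470.0, 462 and 456 CPM with Torin1 and 1006, 999.6 and 995 CPM with rapamycin (-1.11 ± 0.02), and calreticulin, Calr, was lower, at -1.23 ± 0.01. Both had no overlap, with Torin1 the lower group. The factor Xbp1 was lower, at -0.49 ± 0.03, and the co-chaperone Dnajb9 was the 1 called higher (0.24 ± 0.05). Cytosolic chaperones were divided, 17 lower and 8 higher of 27, with Hspa4 at -0.63 ± 0.02 and Hsp90aa1 at -0.39 ± 0.01 against Hsp90ab1 at 0.47 ± 0.01 and Hspa8 at 0.73 ± 0.01, the last uncertain for its pseudogenes. Within the TCP1 ring, whose 8 subunits assemble in equal numbers, 4 messages were higher and 4 lower, Cct4 highest at 0.76 ± 0.02. Of 19 NRF2 targets of the antioxidant response 16 were lower, with the quinone reductase Nqo1 at -1.01 ± 0.06 and thioredoxin, Txn1, at -0.76 ± 0.02.

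Lysosomal messages were higher with Torin1 in 38 of 53 genes and lower in 8, with a median of 0.32. The cholesterol carrier Npc2 measured 578, 561 and 557 CPM with Torin1 and 319, 313 and 309 CPM with rapamycin (0.85 ± 0.02), and progranulin, Grn, a secreted glycoprotein needed for lysosomal function, measured 563, 556 and 551 CPM with Torin1 and 403, 383 and 392.1 CPM with rapamycin (0.50 ± 0.02). The calcium channel Mcoln1 (0.66 ± 0.03) was higher, while the sulfatase Arsb (-0.65 ± 0.04) was lower. The CLEAR-type E-box TCACGTGA, read by TFEB and TFE3, was found in 5 of 41 (12.2%) of their windows, on either strand, against 2.14% of all. The proton pump of the lysosome, the V-ATPase, was higher in 14 of 17 genes, such as Atp6v1b2 (0.52 ± 0.02), and lower in Atp6v0a2 (-0.64 ± 0.03) and Atp6v0a1 (-0.09 ± 0.03, a call lost with upper-quartile scaling at -0.03). Autophagy genes had no common direction (15 higher, 14 lower, 10 not called). The receptor Sqstm1 (p62) measured 595, 600.2 and 604 CPM with Torin1 and 371, 363 and 359 CPM with rapamycin (0.72 ± 0.02), and the melanosome protein Gpnmb (1.45 ± 0.05) and the ULK complex subunit Rb1cc1 (0.56 ± 0.02) were higher. The factors Mitf (-0.85 ± 0.13) and Tfe3 (-0.18 ± 0.03) were lower, and Tfeb stood at -0.05 (95% interval -0.22 to 0.11).

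**Figure D4:**
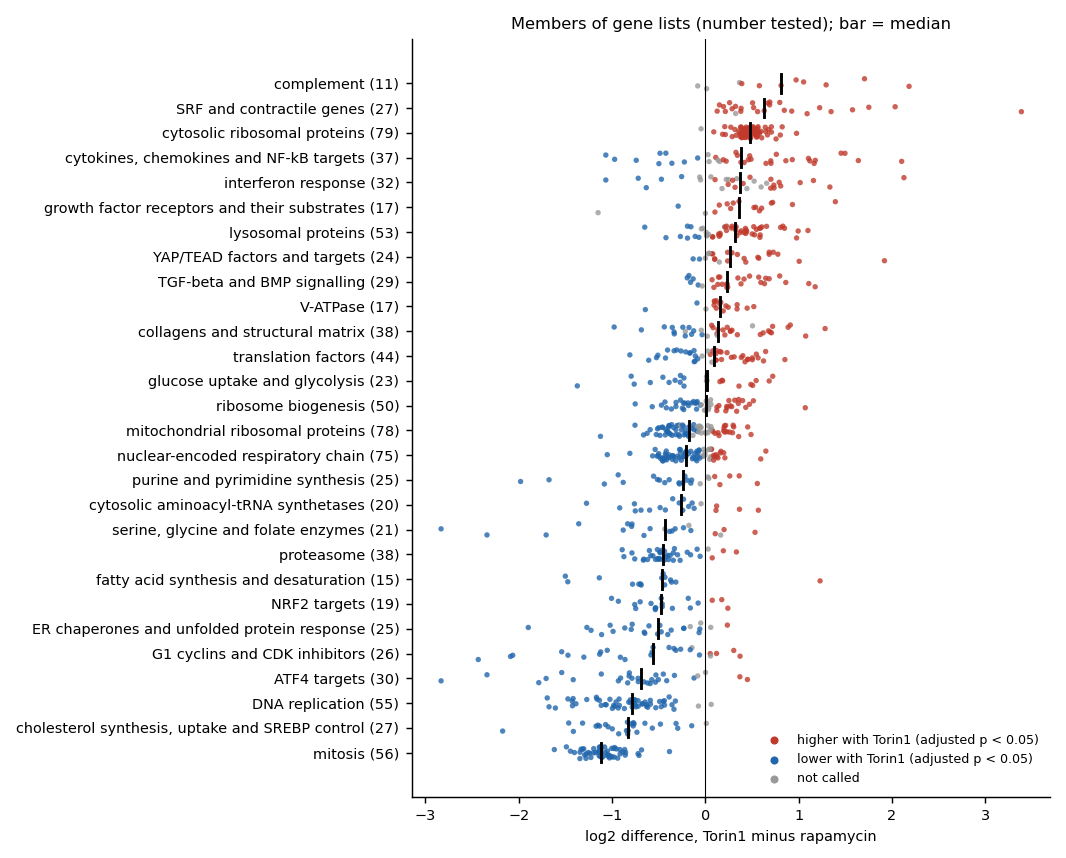
Log2 difference, Torin1 minus rapamycin, of each tested member of 28 gene lists ordered by their median (bar), with the number tested in brackets; colour marks the call. The mitosis list lies wholly left of 0 around -1.11, cytosolic ribosomal proteins form a tight group around 0.48, and contractile genes reach furthest right.

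Contractile and cytoskeletal genes, which the factor SRF and its actin-sensing partners the MRTFs switch on, were higher in 26 of 27 genes, with a median of 0.63. Smooth muscle actin, Acta2, measured 5718, 5674 and 5607 CPM with Torin1 and 2462, 2392 and 2416 CPM with rapamycin, with 1679.7, 1659 and 1687 CPM in DMSO. The myosin light chain Myl9 measured 409, 409 and 402 CPM with Torin1 and 197, 186 and 189 CPM with rapamycin, with 147, 145 and 145 CPM in DMSO. Torin1 was the highest group in both. The differences were 1.23 ± 0.01 and 1.09 ± 0.02, followed in p by tropomyosin Tpm2 (0.93 ± 0.02) and calponin Cnn1 (1.58 ± 0.03). Srf itself (0.63 ± 0.02) and Mrtfa (0.38 ± 0.02) were higher, and Myh11, the smooth muscle myosin, went furthest, from low counts, at 3.54, 3.40 and 2.88 CPM with Torin1 and 0.279, 0.192 and 0.428 CPM with rapamycin (3.39 ± 0.23). The 1 gene not called was desmin, Des (0.33, 95% interval -0.65 to 1.30). The 8 skeletal muscle markers, which include Acta1 and Des, summed to 4.22 to 4.44 CPM with Torin1 and 2.11 to 2.34 CPM with rapamycin, and Myod1, Myog and Ckm were at 0 in all 6 libraries.

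SRF binds the CArG box, which was found on either strand in 7 of 23 (30.4%) of the windows of these genes against 1.63% of all genes tested. The match is shown for 4 genes, 5′ to 3′ on the gene's strand with the box in capitals: Srf at chr17:46556199-46556240 on the minus strand, Myl9 at chr2:156775287-156775328 on the plus strand, Acta1 at chr8:123894823-123894864 on the minus strand and Cnn2 at chr10:79988528-79988569 on the plus strand. Skeletal actin, Acta1, was higher by 1.35 ± 0.17 and the calponin Cnn2 by 0.69 ± 0.01.
Srf: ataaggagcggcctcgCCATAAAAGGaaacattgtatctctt
Myl9: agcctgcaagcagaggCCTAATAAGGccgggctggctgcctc
Acta1: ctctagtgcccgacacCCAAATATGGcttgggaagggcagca
Cnn2: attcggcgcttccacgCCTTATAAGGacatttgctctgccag

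YAP and TEAD respond to cell shape and stiffness. In the list of these factors and their targets, 18 of 24 genes were higher and 2 lower. F3 measured 503, 500.1 and 496 CPM with Torin1 and 134, 129.6 and 132 CPM with rapamycin, and the TEAD target Ankrd1 stood at 0.73 ± 0.02, Ccn1 at 0.43 ± 0.02 and Ccn2 (CTGF) at 0.68 ± 0.02, the last with 23.2% of its exonic bases shared with another gene. Yap1 itself stood at -0.06 ± 0.02, and at 0.00 with upper-quartile scaling, where it was not called. The TEAD site CATTCC was found, on either strand, in 11 of 18 (61.1%) of the windows of this list against 14.6% of all. In TGF-beta and BMP signalling 23 of 29 genes were higher, among them the latent TGF-beta binding protein Ltbp2 (1.11 ± 0.02), the ligands Tgfb3 (0.86 ± 0.02) and Tgfb2 (0.68 ± 0.04) and the BMP antagonist Grem1 (0.63 ± 0.02), while the signal mediator Smad2 was lower (-0.19 ± 0.03).

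Matrix genes had no common direction. The main fibrillar collagens were lower, Col1a2 at 3898, 3979 and 3981 CPM with Torin1 and 6382, 6286 and 6406 CPM with rapamycin (-0.69 ± 0.01), Col3a1 at -0.98 ± 0.02 and Col1a1 at -0.33 ± 0.01. Periostin, Postn, an integrin ligand of remodelling tissue, was higher, at 1014, 999.8 and 1006 CPM with Torin1 and 411, 414 and 415 CPM with rapamycin (1.28 ± 0.02), as were fibronectin, Fn1 (0.71 ± 0.03), decorin, Dcn (0.89 ± 0.03), and fibulin 2, Fbln2 (0.72 ± 0.01). Of 38 tested, 21 were higher with Torin1 and 12 lower. Among the modifying enzymes the transglutaminase Tgm2 (1.57 ± 0.03) and lysyl oxidase, Lox (0.46 ± 0.01), which crosslink fibres, were higher, and the collagen chaperone Serpinh1 (-0.63 ± 0.02) and Pcolce (-0.52 ± 0.02) were lower, 5 of 17 being higher and 11 lower. The collagenase Mmp13 (1.53 ± 0.07), stromelysin, Mmp3 (0.96 ± 0.05), and the protease Adam12 (0.93 ± 0.03) were higher, and the inhibitors Timp1 (-0.26 ± 0.02) and Timp2 (-0.29 ± 0.01) lower; of 33 proteases and inhibitors 14 were higher and 11 lower.

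Inflammatory messages were higher for most but not all members. Il6, the interleukin, measured 28.5, 28.6 and 28.2 CPM with Torin1 and 13.5, 12.05 and 12.4 CPM with rapamycin (1.17 ± 0.05), and cyclooxygenase 2, Ptgs2, measured 524, 523 and 513 CPM with Torin1 and 190.2, 193 and 186 CPM with rapamycin (1.45 ± 0.02). Every Torin1 library exceeded every rapamycin library in both. The NF-kB feedback inhibitors Tnfaip3 (1.11 ± 0.02) and Nfkbia (0.70 ± 0.02) and the platelet chemokine Ppbp (1.497 ± 0.04) were higher, and the interferon-induced chemokine Cxcl10 (-1.07 ± 0.09) and the monocyte chemokine Ccl2 (-0.22 ± 0.02) lower. Of 37 tested, 24 were higher with Torin1 and 9 lower. Complement genes were higher in 8 of 11 and lower in none, with C3, the central component, at 427, 411 and 433 CPM with Torin1 and 200.2, 202 and 209 CPM with rapamycin (1.05 ± 0.02) and C1s1 at 1.71 ± 0.02; C1s1 has a close mouse copy and is uncertain. Of 32 interferon response genes 16 were higher, such as the guanylate-binding protein Gbp2 (1.34 ± 0.04) and the factor Irf9 (0.74 ± 0.05), and 5 lower, among them Isg15 (-0.72 ± 0.20). Markers of macrophages and other blood cells stayed low, the 10 summing to 8.24 to 9.16 CPM with Torin1 and 7.83 to 9.43 CPM with rapamycin.

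Immediate early genes, the first transcripts induced by growth signals, were split 11 higher to 10 lower of 25. Egr1 measured 45.01, 41.1 and 42.0 CPM with Torin1 and 111, 109 and 107 CPM with rapamycin, with 80.6, 79.3 and 81.4 CPM in DMSO, so that rapamycin and Torin1 lay on either side of the control (-1.35 ± 0.03). The AP-1 subunit Jund was lower (-0.87 ± 0.03), Junb (0.61 ± 0.02) and Fosl2 (0.70 ± 0.02) were higher, and Fos stood at -0.16 (95% interval -0.37 to 0.05). Among genes that ERK induces, its own brakes included, the phosphatase Dusp1 (0.89 ± 0.03) and the EGFR inhibitor Errfi1 (0.49 ± 0.02) were higher. The brakes Dusp6 (-0.24 ± 0.03) and Spry4 (-0.52 ± 0.08) were lower, as were the transcription factors Etv4 (-0.60 ± 0.03) and Etv5 (-0.91 ± 0.05). Of 18 ERK-induced genes listed, 8 were higher and 7 lower. The growth factor Igf2 was higher, at 176, 174 and 178 CPM with Torin1 and 71.3, 69.9 and 69.3 CPM with rapamycin (1.33 ± 0.02), and its clearance receptor Igf2r by 0.54 ± 0.02, against -1.15 ± 0.27 for the binding protein Igfbp5, in a list where 11 of 16 were higher and 5 lower. Hif1a, which encodes the oxygen-sensitive factor, was higher by 0.63 ± 0.02, and of 20 of its targets 6 were higher and 10 lower. The p53 targets divided into 6 higher and 12 lower of 22, the death receptor Fas (0.74 ± 0.03) being higher and Trp53 itself lower (-0.31 ± 0.04). Of 13 iron genes 5 were higher and 4 lower, among them the transferrin receptor Tfrc (-0.96 ± 0.02). In the MYC network 5 of 11 were higher, Myc among them (0.40 ± 0.02), and 5 lower. Of 19 clock genes 8 were higher and 5 lower, among them Arntl (BMAL1, -1.001 ± 0.08), and of 13 mitochondrially encoded messages 5 were higher and 1 lower. Splicing factors of the SR family were lower in 12 of 18, Srsf1 at -0.48 ± 0.02 and Srsf3 at -0.61 ± 0.02 among them.

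Some genes lay at close levels with both compounds and away from DMSO, the 95% interval of the Torin1 minus rapamycin difference lying within 0.2 of 0. Furthest above DMSO was the metalloreductase Steap4, at 17.7, 17.0 and 16.6 CPM with Torin1 and 17.9, 18.1 and 18.1 CPM with rapamycin and 9.11, 8.70 and 7.81 CPM in DMSO. Cyclin G2, Ccng2, a FoxO target, measured 58.3, 56.8 and 58.7 CPM with Torin1 and 55.8, 54.7 and 54.1 CPM with rapamycin and 28.2, 30.4 and 28.5 CPM in DMSO. The compound libraries lay close together in both and wholly above DMSO, as the choice of these genes required, and did not overlap each other. Ccng2 was called higher with Torin1 (0.08 ± 0.03), but not with DESeq2 (0.07), nor without any 1 of the Torin1 libraries (0.05 to 0.07) or without rapamycin replicate 2 (0.08) or 3 (0.07), while Steap4 stood at -0.08 (95% interval -0.19 to 0.03) and was not called. The sphingolipid reductase Kdsr, called higher (0.12 ± 0.04) except without Torin1 replicate 1 (0.06), and the recombination protein Rdm1, whose compound libraries overlapped and which was not called, met the same limits. Below DMSO stood the mitochondrial chaperonin Hspd1, at 492, 494 and 479.7 CPM with Torin1 and 544, 549 and 535 CPM with rapamycin and 1019, 1008 and 988 CPM in DMSO and called lower (-0.15 ± 0.02), with the kinases Rps6ka6 and Camk1d and the small leucine-rich protein Aspn, none of these 3 called; without Torin1 replicate 1 Camk1d was called lower (-0.13). Rnase4 and Tuba4a met the limits too, but 32.6% and 37.3% of their exonic bases overlap another gene, so they are uncertain, and the Rnase4 call was lost without any 1 of the Torin1 libraries (0.05 to 0.10).

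In others the DMSO libraries lay between the compounds, with no overlap among the 3 groups. Torin1 was highest and rapamycin lowest for Zfas1 and Npm1 (above), for the prolactin family member Prl2c2, at 103, 109 and 104 CPM with Torin1 and 41.4, 44.4 and 41.6 CPM with rapamycin and 73.0, 70.3 and 70.7 CPM in DMSO, for the phosphomannomutase Pmm1 (1.11 ± 0.04) and for Fjx1, a member of the YAP and TEAD list (1.01 ± 0.07). Prl2c2 has near-identical neighbours in the mouse genome and is uncertain. Rapamycin was highest and Torin1 lowest for F2rl1, at 5.99, 5.39 and 5.98 CPM with Torin1 and 21.2, 20.0 and 21.7 CPM with rapamycin and 16.8, 17.2 and 15.4 CPM in DMSO, and for Egr1 (above). The Wnt inhibitor Dkk2 measured 33.0, 33.4 and 34.1 CPM with Torin1 and 75.1, 75.4 and 78.4 CPM with rapamycin and 56.2, 53.8 and 54.5 CPM in DMSO. That the compounds lay on opposite sides of the control is the rule by which these genes were chosen. The linker histone gene H1fx (-1.40 ± 0.09), the small heat shock protein Cryab (-0.88 ± 0.06) and the sphingomyelin synthase Sgms2 (-0.79 ± 0.04) shared the pattern. H1fx and Cryab are uncertain, as 19.5% and 17.0% of their exonic bases overlap an antisense gene. Fam84b met the limits with 41.7% of its exonic bases overlapping an antisense gene.

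**Figure D5:**
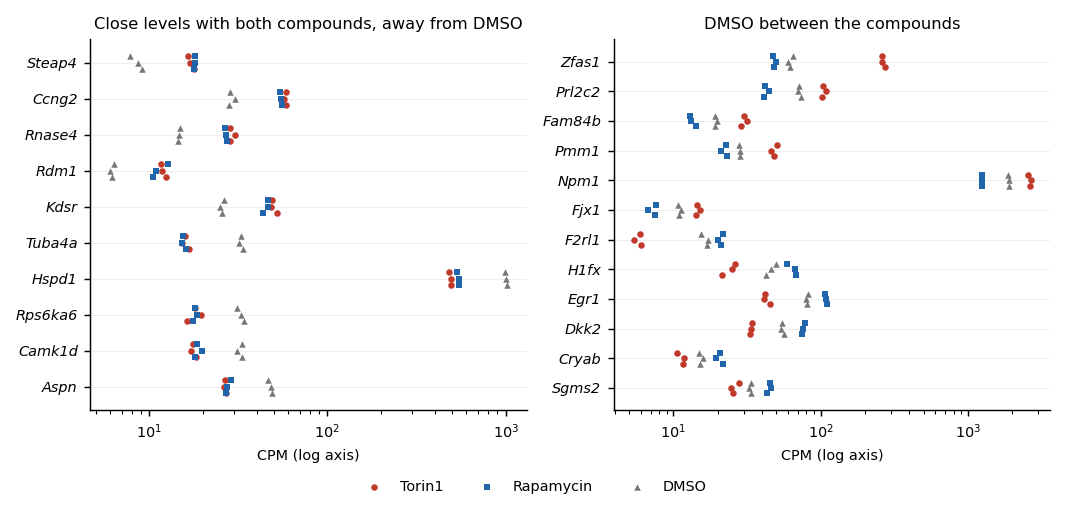
CPM on a log axis in each Torin1, rapamycin and DMSO library. Left, 5 genes above and 5 below DMSO at close levels with both compounds; right, 6 genes with Torin1 highest and 6 with rapamycin highest, the DMSO libraries lying between.

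The labelled cell type was checked against 13 fibroblast markers. Their summed level was 13773 to 13975 CPM with Torin1, 15792 to 16102 CPM with rapamycin and 18103 to 18408 CPM with DMSO, with Col1a1, Col1a2 and the intermediate filament vimentin, Vim (0.55 ± 0.01), as the most abundant. Of the 12 tested 6 were higher and 4 lower, and Fap and Lum averaged under 1 CPM over the 6 libraries. Markers of other cell types were not all low. The 8 neural markers summed to 274 to 285 CPM with Torin1 and 332 to 354 CPM with rapamycin, mostly from the intermediate filament Nes and the microtubule protein Map2, with Rbfox3 at 0 in all 6 libraries. The 8 chondrocyte and bone markers summed to 153 to 160.2 CPM with Torin1 and 139 to 140.2 CPM with rapamycin, with Ibsp at 0 in all 6. The 9 epithelial markers summed to 14.1 to 15.9 CPM with Torin1 and 9.91 to 11.6 CPM with rapamycin, mostly from Krt19. The 8 endothelial markers summed to 3.61 to 4.03 CPM with Torin1 and 1.53 to 2.26 CPM with rapamycin, with Cldn5 and Tie1 at 0 in all 6 libraries. Mitochondrially encoded messages took 1.36% to 1.39% of the counts with Torin1 and 1.29% to 1.32% with rapamycin. The part of these shifts in the other differences was not tested.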

How the data were processed

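Each library came as 1 table of raw counts per gene, produced by the authors with featureCounts, per the file headers, and taken as deposited. Trimmomatic 0.36, STAR 2.5.2b, Subread 1.5.2, DESeq2 and GRCm38 stand in the submitters' processing notes. Libraries were made with the NEBNext Ultra RNA kit, per the labels' protocols. The strand setting and the handling of reads that match several places are not stated in the labels or headers used here. Genes that overlap others or have close copies are therefore uncertain. Not every such gene is marked, and smaller overlaps, such as 10.5% of the exonic bases of Fanca, are left out above. Of 49315 genes listed, 19906 had no count in any library. Symbols were taken from GENCODE M21 and promoter sequences from RefSeq (GRCm38.p6, 10947 tested genes matched).

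All 12 libraries entered 1 robust quasi-likelihood fit in edgeR 4.0.16 (R 4.3.3), with group as the only term, filterByExpr by group, TMM scaling and Benjamini-Hochberg adjustment over 15917 genes, and genes were called at an adjusted p under 0.05, two-sided. All adjusted p-values come from this test unless another tool is named. Among the genes named in the text, the highest adjusted p of a called gene was 0.0269. For 3 against 3 libraries the smallest two-sided p that exact permutation allows is 0.1. CPM were scaled by the same factors. The 53 gene lists and the comparison itself were chosen with earlier results of these data known, and the lists are described by counts and medians, without a test. Genes were named as the 15 largest rises and 15 largest falls (called, mean of at least 10 CPM, no overlap, no provisional symbol), up to 8 members of each list by smallest p and by role (all members for the mTOR, brake, translation control, FK506-binding and receptor lists), and genes at equal level with both compounds or with DMSO between them (at least 0.3 on the log2 scale from each). A few genes that these rules name are not reported here. The genes with printed sequences, the exceptions among small counts and the marker genes were added after their values were seen. The fit was tried on simulated counts in which only a small part of the genes was changed. That trial does not cover differences as widespread as those called here. Alternatives covered scaling, filters, DESeq2 1.42.0, limma 3.58.1 voom, the 6 libraries alone, gene length, a replicate block and each library left out.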

Additional observations from a re-analysis of the deposited data

How the results depend on the processing

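Over 15 alternative settings the number of genes called and its split stayed within 1.5 times of the main values. Without each library in turn, 10286 to 10478 genes were called, 4926 to 5272 higher and 5095 to 5385 lower, with 745 to 825 higher and 521 to 588 lower by at least 2-fold. Requiring a mean of 5 CPM, which tests fewer genes, left 210 higher and 237 lower by at least 2-fold. DESeq2 called 9604 genes and limma-voom 10714. Upper-quartile scaling called 6359 higher and 4489 lower, and Yap1 went from -0.06 to 0.00104. With that scaling 5 lysosomal genes were lower (8 with TMM) and 3 genes of fatty acid oxidation (5), while the mean of 5 CPM left 4 complement genes higher (8) and 5 clock genes (8). The median of 10 of the 53 lists, all near 0, changed sign in some setting, and 18 of 303 genes named with values changed their call or direction in some setting. For some of these genes only part of the settings concerned is given above. The labels number the replicates in each group, but same-numbered libraries deviated together only weakly (correlations of 0.10, 0.03 and 0.05), and Torin1 replicate 3 correlated best with rapamycin replicate 2 (0.06), so the numbers were not taken to pair the samples. With the replicate block 10741 genes were called, 5458 higher and 5283 lower, and 0 of the named calls were lost. Depth limits genes at a few counts per library, such as Ddit4l and Des, whose intervals are wide. Chi-square over its degrees of freedom between replicates of a group was 1.45 to 1.99, so no library looked deposited more than once.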
